A study of Xenopus laevis with 54 samples.

Results

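The genes described here are the kinesins, kinetochore proteins, mitotic kinases and condensin subunits of the frog Xenopus laevis, followed as RNA from the unfertilized egg to the late blastula. Members were chosen by name: every row whose symbol begins with kif and a number, cenp and a letter from a to x, aurka, aurkb, plk1, bub1, bub3, ttk, ndc80, nuf2, spc24, spc25, incenp, birc5, cdca and a number, pbk, tpx2, prc1 or ncap. The rule found 119 of the 50489 gene rows in the table. These rows carry 79 gene names, because Xenopus laevis is an allotetraploid whose genes are often kept as an L and an S copy, one from each ancestral subgenome. There were 72 L rows and 47 S rows, and 38 names had both. A few matches were counted apart from the other roles: aurkaip1, named for an Aurora A interacting protein, cenpj, a centriole assembly gene, and cenpv, together 5 rows.

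At mitosis, kinesins move along or take apart microtubules to build the spindle, and the kinetochore, a protein complex on the centromere, attaches chromosomes to it. Aurora and Polo-like kinases time these steps, the spindle checkpoint holds anaphase until all chromosomes are attached, and condensin compacts the chromosomes. Early frog embryos divide rapidly on messages and proteins stored in the egg, and the cycles lengthen at the midblastula transition, when transcription from the embryo's own genome becomes widespread.

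All embryos were wildtype and had been microinjected at the 1-cell stage with 10 nl of 50 mM EU (5-ethynyl uridine), to about 0.5 mM. EU is a uridine analogue that enters newly made RNA, which can then be tagged with biotin and captured. Embryos were collected at 5, 6, 7, 8 and 9 hours post fertilization (hpf), and their RNA was sequenced as bead RNA (captured on streptavidin), flowthrough RNA (left unbound) or total RNA. Bead and flowthrough RNA had 4 libraries at every time, 2 from each of 2 experiments. Total RNA had 2 libraries from experiment 1 at every time and 2 more from experiment 2 at 5 hpf, and 2 libraries from unfertilized eggs, with no treatment in the labels, came from experiment 2. Replicates are clutches, according to the study's design text. The labels used here name no capture without EU, so carry-over onto the beads could not be measured.

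The values are the authors' normalised read counts, rounded to whole numbers, and they are relative to the rest of each library. They were compared within a gene and not between genes, since no gene lengths enter them. The library sums lay between 7376513 and 8806052 in experiment 1 bead RNA, 8175480 and 15200969 in experiment 2 bead RNA, 7455643 and 8090104 in flowthrough RNA, and 7869490 and 8757424 in total RNA. Experiment 2 bead libraries had only 12814 to 18990 genes above 0, against 21965 to 25064 in flowthrough libraries. Up to 18 members with a flowthrough mean of at least 100 were listed at 0 in an experiment 2 bead library, and none in any other library. As a check of the labelled age, a list of 16 rows of genes first transcribed in the blastula summed to 14950 and 17173 at 9 hpf against 8 to 17 at 5 hpf in total RNA, and 15 rows of follicle and blood markers summed to at most 255 in these libraries. In flowthrough RNA and 5 hpf total RNA, replicates 1 and 3 deviated together, and so did 2 and 4, although they belong to different experiments. The difference of replicate 1 minus 2 correlated with that of 3 minus 4 at r = 0.731 over 16502 genes of 5 hpf flowthrough RNA, all normalised in one table. It was 0.583 to 0.731 in flowthrough RNA over the 5 times and 0.748 in 5 hpf total RNA, but 0.141 to 0.248 in bead RNA. Whether the experiments shared clutches was not tested, so the 4 libraries of a group may hold fewer than 4 independent clutches.

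In flowthrough RNA, messages of Aurora A, PBK and a small set of spindle and kinetochore proteins were at least 2-fold lower at 9 hpf than at 5 hpf, and most other members changed by less or were not called. Of the 119 members, 110 reached a value of 10 in enough libraries to be tested. The other 9 were cenpl.L and kif28p.L, listed at 0 in every library, and cenpn.S_gene39628, cenpv.L, cenpv.S, kif19.L, kif1a.L, kif26a.S and kif5c.L. Of the 110, 10 were called lower at 9 hpf than at 5 hpf and none higher, where called means an adjusted p under 0.05 in limma and at least a 2-fold change of value + 1. That is 9.09% of the members, beside 3.94% of all 19277 genes tested called lower and 0.202% called higher. Without the fold threshold, 33 members were lower and 8 higher at an adjusted p under 0.05. At an unadjusted p under 0.05, 13 members had a positive change and 39 a negative one. Counts at these cuts, here and below, have no share over all genes beside them and are not read against a background. Of the members tested, 64.5% had a negative change, against 54.7% of all genes tested. The members' median log2 change was -0.11, against -0.04 for all genes tested. In bulk RNA, fewer cells of a type and less RNA per cell cannot be told apart.

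**Figure D1:**
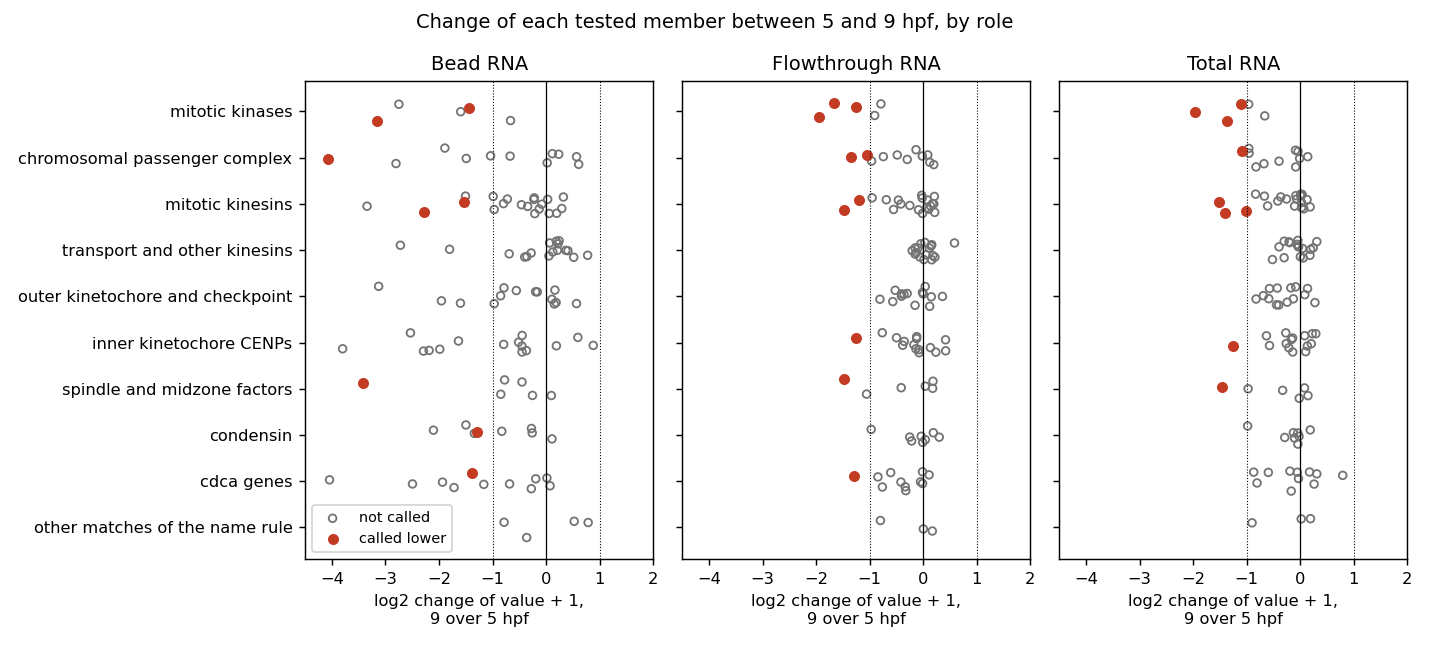
Log2 change of value + 1 at 9 hpf over 5 hpf for every tested member, one row per role and one panel per fraction; filled points were called lower and dotted lines mark 2-fold. The 5 rows of aurka, plk1 and pbk, plotted as mitotic kinases, all lie left of 0 in each panel, while the transport kinesins gather around 0 in flowthrough and total RNA.

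Of the rows of aurka, plk1 and pbk, grouped here as mitotic kinases, 3 of 5 were called lower and all 5 were negative, at a median log2 change of -1.25. Other kinases of mitosis are counted with the complexes they work in, and these were mixed. Among them aurkb.L was called lower, as given below, with a 9 hpf mean at 48.7% of its 5 hpf mean, and ttk.S stood at 75.8%. By contrast aurkb.S had a log2 change of -0.02, bub1.L of 0.15 and ttk.L of 0.04, none with an adjusted p under 0.05. The message of pbk.L, a kinase of mitotic cells also called TOPK, had values of 100, 84, 105 and 90 in 9 hpf flowthrough libraries, against 429, 377, 323 and 342 at 5 hpf. No 9 hpf library came near a 5 hpf one, and the log2 change was -1.94 ± 0.10 (SE, adjusted p = 3.81e-10). For aurka.L, which encodes Aurora A, the kinase of centrosomes and spindle poles, the values were 300, 387, 291 and 385 at 9 hpf, against 1038, 1122, 1049 and 1108 at 5 hpf. All 9 hpf libraries were again below all 5 hpf ones, with a log2 change of -1.67 ± 0.09 (adjusted p = 3.81e-10). Its S copy, aurka.S, had 453, 561, 434 and 526 at 9 hpf, against 1265, 1212, 1164 and 1041 at 5 hpf (log2 change -1.25 ± 0.09, adjusted p = 1.04e-08). Polo-like kinase 1, which acts from mitotic entry to cytokinesis, moved the same way by less than 2-fold in both copies. The values of plk1.L were 1549, 1644, 1642 and 1489 at 9 hpf and 3180, 2948, 2898 and 2820 at 5 hpf, without overlap, and its log2 change was -0.90 (adjusted p = 5.31e-09). For plk1.S the log2 change was -0.79 (adjusted p = 5.22e-07).

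The fall was gradual over the sampled hours. The mean of aurka.L in flowthrough RNA stood at 100%, 72.4%, 55% and 31.6% of its 5 hpf mean at 6, 7, 8 and 9 hpf. For pbk.L the same means were 93%, 71.7%, 45.2% and 25.8%, and for plk1.L 91.6%, 82.1%, 69.3% and 53.4%. At 7 hpf no member was called against 5 hpf in flowthrough RNA in either direction, while 23 members had an unadjusted p under 0.05 in limma, 20 of them negative. Among all genes, 0.0156% were called higher and 0% lower at 7 hpf.

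**Figure D2:**
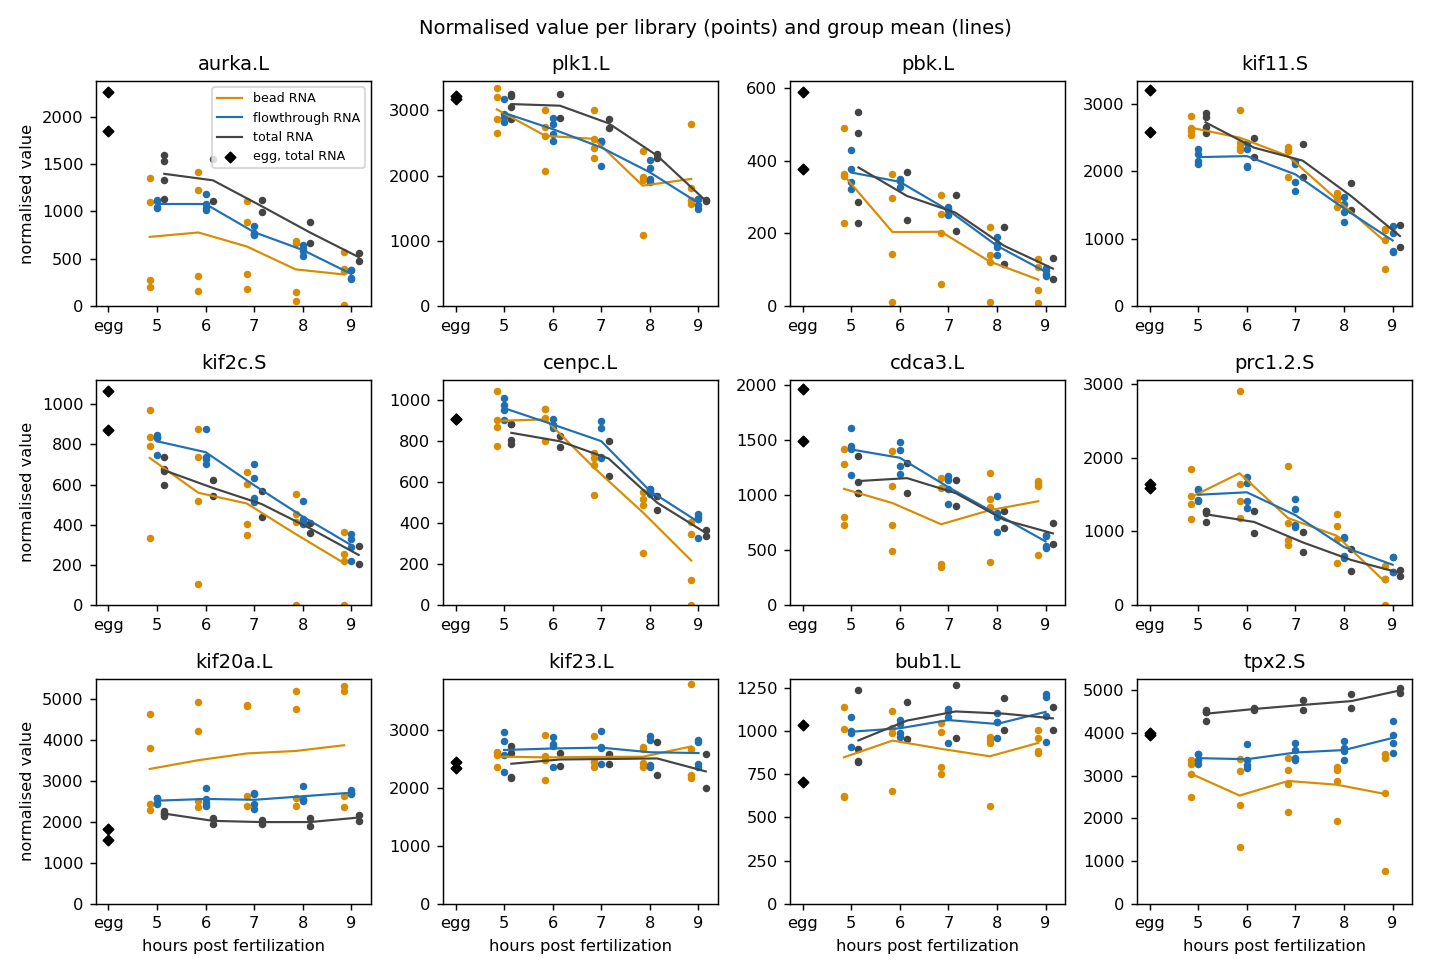
Normalised value (y axis, starting at 0) of 12 members in each library against hours post fertilization, with lines through the group means of bead, flowthrough and total RNA and diamonds for eggs. The first 8 panels show members called lower in flowthrough or total RNA, or just short of 2-fold (plk1.L); the last 4 show members that were not called, such as kif20a.L, whose 9 hpf flowthrough libraries ran from 2679 to 2780.

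Among the mitotic kinesins, 2 of 20 tested rows were called lower in flowthrough RNA and at an adjusted p under 0.05 there were 7 negative rows and 1 positive, kif20b.S (log2 change 0.22, adjusted p = 0.000621). The message of kif2c.S, whose product MCAK takes apart microtubule ends at centromeres, had 290, 331, 219 and 352 at 9 hpf, against 845, 750, 837 and 832 at 5 hpf. Its log2 change was -1.47 ± 0.13 (adjusted p = 2.59e-07), and no libraries overlapped. For kif11.S, the Eg5 motor that pushes spindle poles apart, the values were 802, 1191, 817 and 1088 at 9 hpf and 2151, 2106, 2322 and 2255 at 5 hpf (log2 change -1.20 ± 0.12, adjusted p = 8.26e-07). The L copy, kif11.L, stood just short of the threshold, with 1248, 1406, 1033 and 1306 at 9 hpf and 2473, 2420, 2423 and 2295 at 5 hpf (log2 change -0.95, adjusted p = 4.12e-08). The chromosome-arm motor kif4a.S was also lower by less than 2-fold, at -0.69 (adjusted p = 2.12e-06). The kinesins of cytokinesis named here were not called. For kif23.L, the MKLP1 motor of the central spindle, the values were 2833, 2418, 2805 and 2375 at 9 hpf and 2971, 2574, 2817 and 2282 at 5 hpf, which overlap (log2 change -0.03, adjusted p = 0.907). For kif20a.L, the MKLP2 motor that carries the chromosomal passenger complex to the midzone, they were 2780, 2694, 2679 and 2696 at 9 hpf and 2572, 2472, 2581 and 2444 at 5 hpf (log2 change 0.11, adjusted p = 0.222).

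The transport and other kinesins, a mixed group of cargo carriers and of motors of cilia and other structures outside the spindle, gave no call in 17 tested rows of 22 in flowthrough RNA, with 4 positive and 1 negative at an unadjusted p under 0.05. Their log2 changes ran from -0.20 to 0.59, with a median of 0.03. The range in mitotic kinesins was -1.47 to 0.22, with a median of -0.02.

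In the chromosomal passenger complex, which corrects wrong attachments and then directs cytokinesis, 2 of 11 rows were called lower in flowthrough RNA. For birc5.S, one copy of the survivin gene, the values were 89, 111, 80 and 79 at 9 hpf and 280, 196, 211 and 235 at 5 hpf, with no overlap (log2 change -1.35 ± 0.16, adjusted p = 4.55e-06). For aurkb.L, which encodes the kinase of the complex, they were 852, 1195, 854 and 987 at 9 hpf and 1849, 2160, 1860 and 2114 at 5 hpf (log2 change -1.05 ± 0.11, adjusted p = 1.81e-06). The aurkb.L change was under 2-fold in experiment 1 alone (-0.99), without 9 hpf replicate 1 (-0.97) and without 9 hpf replicate 3 (-0.9992), at adjusted p-values under the threshold each time. The scaffold of the complex, incenp.L, was lower by less than 2-fold, with 3286, 3364, 3239 and 3334 at 9 hpf against 4870, 4509, 4702 and 4415 at 5 hpf (log2 change -0.48, adjusted p = 1.97e-06). Both copies of borealin, cdca8.L and cdca8.S, had changes of 0.12 and 0.09 with adjusted p-values above the threshold. Also counted here, cdca9.S and birc5.L were not called, with 9 hpf means at 59.7% and 51.2% of their 5 hpf means. Of the 11 rows, 8 had a negative change.

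At the kinetochore, the inner layer of CENP proteins had 1 call in 15 tested rows and the outer layer with the checkpoint had 0 in 14 rows (limma; 5 of those 14 negative and 1 positive at an unadjusted p under 0.05). The inner call was cenpc.L, the protein that ties centromeric chromatin to the outer kinetochore, with 417, 445, 325 and 429 at 9 hpf against 974, 901, 1010 and 948 at 5 hpf. It was lower in every 9 hpf library than in any 5 hpf one, with a log2 change of -1.25 ± 0.09 (adjusted p = 1.34e-08). By contrast cenpa.L, the histone variant that marks the centromere, had 963, 766, 696 and 779 at 9 hpf and 702, 645, 828 and 551 at 5 hpf, which overlap (log2 change 0.24, adjusted p = 0.225). Of the microtubule-binding NDC80 complex, nuf2.L had 345, 366, 351 and 436 at 9 hpf against 668, 660, 621 and 663 at 5 hpf, a log2 change of -0.81 (adjusted p = 4.77e-06). Its partner spc25.L went the other way with overlapping libraries, at 704, 503, 846 and 672 at 9 hpf and 553, 533, 528 and 474 at 5 hpf (log2 change 0.36, adjusted p = 0.0311). The spc25.L mean at 9 hpf was 131% of its 5 hpf mean, beside 104% in total RNA and 61.5% in bead RNA. Other rows of the complex in flowthrough RNA stood at 67.2% (ndc80.L), 81% (ndc80.S), 75.7% (nuf2.S) and 100% (spc24.L). The checkpoint kinase bub1.L had 1201, 1090, 1217 and 940 at 9 hpf and 1085, 1001, 992 and 910 at 5 hpf, with overlap and no call (log2 change 0.15, adjusted p = 0.2).

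Of the spindle and midzone factors, prc1.2.S, a gene for the PRC1 protein that bundles midzone microtubules, had 443, 651, 447 and 647 at 9 hpf against 1579, 1569, 1412 and 1431 at 5 hpf. The groups were well apart, and the log2 change was -1.48 ± 0.16 (adjusted p = 3.17e-06). The rows prc1.L and prc1.S were not called, with 9 hpf means at 75.8% and 103% of their 5 hpf means. For tpx2.S, the activator of Aurora A on spindle microtubules, the values were 3947, 3532, 4285 and 3778 at 9 hpf and 3501, 3368, 3282 and 3498 at 5 hpf. All 9 hpf libraries were above all 5 hpf ones, by a log2 change of only 0.18 (adjusted p = 0.0409), while both copies of its partner aurka were called lower. In condensin, ncapd2.S had 1837, 1713, 1795 and 1796 at 9 hpf and 3791, 3442, 3314 and 3457 at 5 hpf (log2 change -0.97, adjusted p = 3.81e-10), whereas ncapg.L, another subunit of the same complex, had 1571, 1475, 1660 and 1340 at 9 hpf and 1331, 1323, 1318 and 1307 at 5 hpf (log2 change 0.19, adjusted p = 0.0354). The cdca genes had 1 call in 11 rows, cdca3.L, an adaptor that promotes mitotic entry, with 535, 640, 515 and 624 at 9 hpf against 1419, 1612, 1178 and 1450 at 5 hpf (log2 change -1.29 ± 0.11, adjusted p = 1.43e-07).

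Total RNA, where the 9 hpf libraries come from experiment 1 only, gave 9 members lower and 0 higher of 110 tested, or 8.18% lower, beside 2% of all 21534 genes called lower and 6.25% called higher. At an unadjusted p under 0.05 in limma, 3 members had a positive change and 36 a negative one. The lower members in total RNA were pbk.L, aurka.L, aurka.S, kif2c.S, kif11.S, kif11.L, prc1.2.S, cenpc.L and birc5.S. Of these, 8 were also among the 10 of flowthrough RNA, which is 80% of that list and 88.9% of the total RNA list. The 2 lists are not independent, since experiment 1 also supplied 2 flowthrough libraries at each time. Their overlap has no figure over all genes beside it and is not read against a background. With the experiment as a term, the total RNA changes rest on experiment 1, whose libraries are the first 2 values listed at each time. The later values at 5 hpf, from experiment 2, do not enter the change itself. The total RNA values of aurka.L were 477 and 560 at 9 hpf, against 1130, 1593, 1329 and 1538 at 5 hpf (log2 change -1.38 ± 0.22, adjusted p = 0.00209). For kif11.S they were 879 and 1201 at 9 hpf, against 2571, 2865, 2661 and 2796 at 5 hpf (log2 change -1.40 ± 0.18, adjusted p = 0.00056). The call of pbk.L in total RNA rests on single libraries: it had 132 and 75 at 9 hpf and 535, 286, 476 and 229 at 5 hpf (log2 change -1.96 ± 0.49, adjusted p = 0.0272), and the adjusted p was 0.185 without 5 hpf replicate 1 and 0.173 without 9 hpf replicate 2. The calls of aurka.S, birc5.S and kif11.L fell just under 2-fold when 1 library was left out, at -0.98 for aurka.S without 9 hpf replicate 1, -0.96 for birc5.S without 9 hpf replicate 2, and -0.98 and -0.96 for kif11.L without 5 hpf or 9 hpf replicate 1. One member was higher at an adjusted p under 0.05 without reaching 2-fold, cdca4.L, with 203 and 219 at 9 hpf against 104, 141, 132 and 160 at 5 hpf (log2 change 0.79 ± 0.19, adjusted p = 0.0199).

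The step from egg to 5 hpf gave no calls. Of 110 members, 0 were called in either direction between 5 hpf total RNA and eggs, with 9 positive and 10 negative at an unadjusted p under 0.05 in limma, and 0.237% of all genes were called higher and 0.283% lower. The comparison rests on experiment 2, where both groups had 2 libraries. The S copy of the MKLP2 motor, kif20a.S, had 1809, 1695, 2120 and 2050 at 5 hpf and 1517 and 949 in eggs (log2 change 0.80 ± 0.16, adjusted p = 0.0665). The adaptor gene cdca3.L had 1023, 1354, 1015 and 1118 at 5 hpf and 1967 and 1488 in eggs (log2 change -0.68, adjusted p = 0.203). Eggs and 5 hpf embryos did not overlap for either, but there were only 2 egg libraries and neither member was called. The first 2 values at 5 hpf are from experiment 1.

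The L and S copies of a gene did not always change alike in flowthrough RNA. Of 33 gene names with both copies tested, the L minus S difference in log2 change between 9 and 5 hpf was called for 1, with L higher, and for 0 with L lower (limma; 4 positive and 6 negative at an unadjusted p under 0.05). That is 3.03% of the pairs, beside 0.811% of all 4807 pairs called with L higher and 0.458% with L lower. Reads that fit both copies were divided between them by the authors' counting, so the split between near-identical copies is uncertain.

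The called pair was kif2c. The L copy, kif2c.L, had 889, 850, 778 and 764 at 9 hpf against 1189, 956, 1249 and 1002 at 5 hpf, a log2 change of -0.42 (adjusted p = 0.00203), beside -1.47 for kif2c.S. The difference of 1.06 ± 0.18 had an adjusted p of 0.0023. It was 1.06 in experiment 1 alone (adjusted p = 0.345) and 1.05 in experiment 2 alone (adjusted p = 0.347), and it slipped under 2-fold without 5 hpf replicate 4 (0.999) or 9 hpf replicate 3 (0.93). Other pairs leaned the other way. The difference was -0.42 for aurka (adjusted p = 0.00664), -0.40 for nuf2 (adjusted p = 0.0201) and -0.35 for incenp (adjusted p = 0.00372), each with the L copy lower and none reaching 2-fold. In bead RNA 0 of 33 pairs were called in either direction (limma; 1 positive and 3 negative at an unadjusted p under 0.05), beside 0.258% of all pairs with L higher and 0.239% with L lower.

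**Figure D3:**
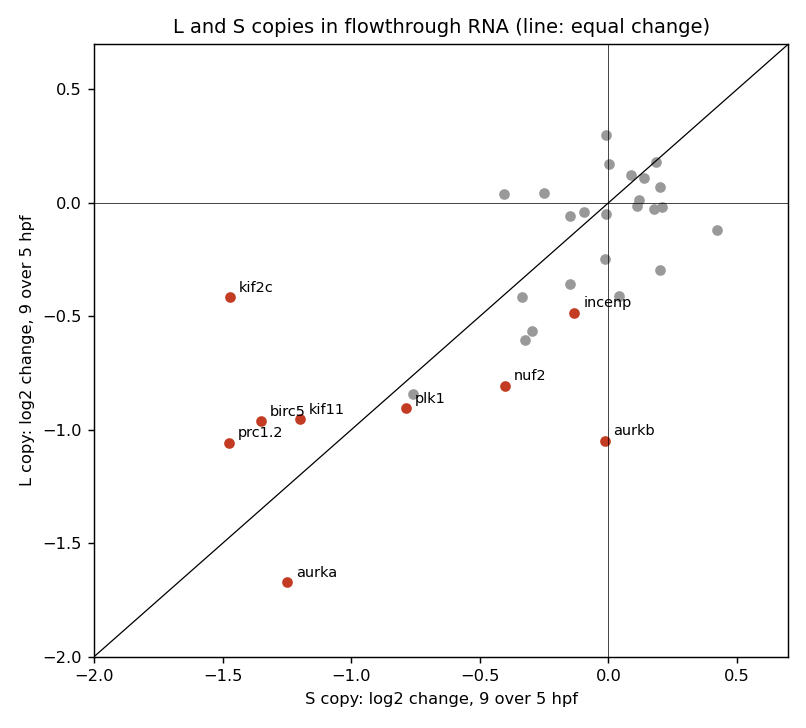
Log2 change at 9 hpf over 5 hpf in flowthrough RNA of the L copy (y axis) against the S copy (x axis) for 33 genes, with the line of equal change. The gene kif2c lies above the line (-0.42 for L, -1.47 for S) and aurkb below it (-1.05 for L, -0.02 for S).

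The 2 copies of aurkb showed the widest gap in that direction. While aurkb.L fell by 1.05 on the log2 scale, aurkb.S had 646, 1484, 772 and 1421 at 9 hpf and 765, 1573, 681 and 1338 at 5 hpf, a log2 change of -0.02 (adjusted p = 0.993). The L minus S difference of -1.03 ± 0.32 was not called (adjusted p = 0.0716), but with the replicate number as a block the adjusted p was 1.2e-05. Without the block, the spread in aurkb.S between replicates enters the error: replicates 1 and 3 were low and replicates 2 and 4 high at both times. In total RNA at 5 hpf the same order appeared, at 829, 1581, 737 and 1397. The midzone gene prc1.2.L, chosen after its values were seen, had a like order, with 223, 527, 230 and 516 at 9 hpf and 489, 974, 574 and 961 at 5 hpf. Its log2 change of -1.06 was not called (limma, adjusted p = 0.108), whereas with the replicate block the adjusted p was 6.23e-15. The block counts replicates 1 to 4 as 4 clutches. Whether the experiments shared clutches was not tested, and if they did, both block p-values rest on fewer clutches.

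**Figure D4:**
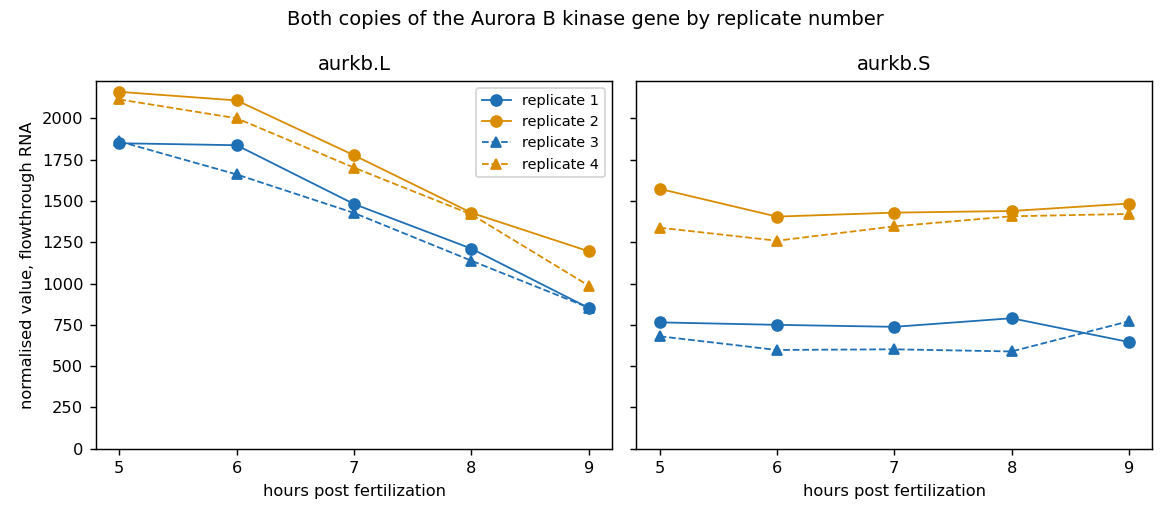
Normalised value of aurkb.L and aurkb.S in flowthrough RNA (y axis, starting at 0) against hours post fertilization, one line per replicate; solid lines are experiment 1 and dashed lines experiment 2. In aurkb.S, replicates 1 and 3 end at 646 and 772 and replicates 2 and 4 at 1484 and 1421, while all replicates of aurkb.L end between 852 and 1195.

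Bead RNA gave 8 members lower and 0 higher of 111 tested at 9 hpf, or 7.21% lower, beside 1.43% of all 20703 genes called lower and 5.83% called higher. At an unadjusted p under 0.05 in limma, 3 members had a positive change and 28 a negative one. The count of lower members was 14 without 9 hpf replicate 2, 18 after quantile normalization and 4 in experiment 2 alone. Under the same settings 622 and 562 of all 20703 genes, and 67 of 19870, were called lower. The median log2 change was -0.45 for the members and -0.33 for all genes tested. In experiment 1 alone these medians were -0.155 and -0.00319, and in experiment 2 alone -0.706 and -0.591. The lower members were aurka.S, plk1.S, kif11.S, kif4a.S, birc5.S, prc1.2.S, ncapd2.S and cdca2-like.L, and 4 of the 8 were also called lower in flowthrough and total RNA: aurka.S, birc5.S, kif11.S and prc1.2.S. The lists of the 3 fractions share experiments and are not independent, and their overlap has no figure over all genes beside it. At 7 hpf no member was called in either direction (3 negative and 0 positive at an unadjusted p under 0.05), beside 1.25% of all genes called higher and 0% lower.

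Several of these calls did not have the same support in both experiments. For kif11.S the bead values were 985, 1133, 554 and 1140 at 9 hpf and 2633, 2536, 2817 and 2595 at 5 hpf, low in all 4 libraries (log2 change -1.53 ± 0.19, adjusted p = 5.48e-06). For plk1.S they were 1449, 1789, 676 and 769 at 9 hpf and 3082, 3228, 2333 and 3222 at 5 hpf (log2 change -1.45 ± 0.20, adjusted p = 2.12e-05), and in experiment 1 alone the change was -0.97. The condensin gene ncapd2.S had 1821, 1865, 1218 and 1446 at 9 hpf and 3633, 3474, 4355 and 3812 at 5 hpf (log2 change -1.28 ± 0.15, adjusted p = 2.15e-06), with -0.95 in experiment 1 alone. The values of aurka.S were 529, 537, 13 and 26 at 9 hpf and 1326, 1260, 632 and 644 at 5 hpf, so the log2 change of -3.16 ± 0.67 (adjusted p = 0.00309) is carried mostly by the last pair of libraries, those of experiment 2.

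The survivin copy birc5.S was listed at 0 in both experiment 2 bead libraries at 9 hpf, beside 78 and 110 in experiment 1, against 291, 279, 149 and 57 at 5 hpf. Its adjusted p was 0.0189 with all libraries, and 0.0803 without 5 hpf replicate 3, 0.0628 without 9 hpf replicate 3 and 0.0558 without 9 hpf replicate 4. For prc1.2.S the values were 357, 527, 350 and 4 at 9 hpf and 1173, 1370, 1842 and 1479 at 5 hpf (adjusted p = 0.0449), and leaving out any one 5 hpf library gave adjusted p-values from 0.074 to 0.101. For kif4a.S they were 1128, 1198, 425 and 27 at 9 hpf and 2147, 1994, 1573 and 1326 at 5 hpf (adjusted p = 0.034), and leaving out any one 5 hpf library gave 0.053 to 0.0981. The member cdca2-like.L had 558, 777, 442 and 193 at 9 hpf and 1138, 1235, 1053 and 1171 at 5 hpf (log2 change -1.39, adjusted p = 0.00676), with -0.85 in experiment 1 alone.

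In experiment 1 alone, 9 members were called lower in bead RNA, among them aurka.L, pbk.L, kif2c.S, cenpc.L and birc5.L besides 4 of the 8 above, and 1 was called higher, cenpv.L. Of all 21341 genes tested in that experiment, 368 were called lower and 1771 higher. With the replicate block, cenpc.L and ncaph2.S joined the lower members, at adjusted p-values of 0.0412 and 0.0344 against 0.0502 for cenpc.L and 0.0615 for ncaph2.S without it. In the other direction, cenpa.L and the transport kinesin kif3b.S, a subunit of the kinesin-2 motor that builds cilia, had positive changes under 2-fold. Bead values of cenpa.L were 1188, 807, 4708 and 3202 at 9 hpf and 573, 555, 1781 and 2212 at 5 hpf, higher at 9 hpf within each experiment (log2 change 0.88 ± 0.19, adjusted p = 0.00278). For kif3b.S they were 1973, 1982, 8501 and 14133 at 9 hpf and 1411, 1459, 4362 and 6069 at 5 hpf (log2 change 0.78 ± 0.22, adjusted p = 0.0261).

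Against flowthrough RNA at 9 hpf, bead RNA had 8 members higher and 17 lower of 111 tested, or 7.21% and 15.3%, where 9.35% of all 21544 genes were called higher and 18.9% lower. The members' shares were thus no larger than the background. At 5 hpf 2 members were called higher, incenp.L and incenp.S, and 0 lower, beside 0.436% and 1.47% of all genes. At an unadjusted p under 0.05 in limma, 12 members were positive and 9 negative. The 8 higher members at 9 hpf were incenp.L, incenp.S, kif3b.S, kif3a.L, kif3a.S, cenpa.L, nuf2.S and aurkb.S.

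These differences were mostly those of experiment 2. The bead values of incenp.L at 9 hpf were 4291, 4862, 21736 and 26682, against flowthrough values of 3286, 3364, 3239 and 3334. Bead libraries were above flowthrough libraries in both experiments, but by 0.46 on the log2 scale in experiment 1 alone (adjusted p = 0.000509) and 1.67 ± 0.12 over both (adjusted p = 6.11e-13). For kif3b.S the bead values were 1973, 1982, 8501 and 14133, against flowthrough values of 1549, 1467, 1678 and 1541, a log2 difference of 1.58 ± 0.17 (adjusted p = 5.79e-09) over both experiments and 0.39 in experiment 1 alone (adjusted p = 0.0312). For cenpa.L the bead values were 1188, 807, 4708 and 3202, against flowthrough values of 963, 766, 696 and 779, which overlap within experiment 1 (log2 difference 1.29 ± 0.16, adjusted p = 6.02e-08). For aurkb.S the bead values were 958, 2086, 2543 and 6869, against flowthrough values of 646, 1484, 772 and 1421, with the difference between replicate numbers in both fractions (log2 difference 1.26 ± 0.45, adjusted p = 0.029). This call was lost in experiment 1 alone (adjusted p = 0.735), in experiment 2 alone (0.0651), after quantile normalization (0.222), without bead replicate 2 (0.0692) or 4 (0.137) and without flowthrough replicate 1 (0.114) or 3 (0.0764). After quantile normalization, which moved the median of all genes from -0.695 to -0.284, incenp.L was at 0.37, incenp.S at 0.37, kif3b.S at 0.70, cenpa.L at 0.82, kif3a.L at 0.83 and kif3a.S at 0.87, all under 2-fold at adjusted p-values under the threshold. Of the 8 higher members, nuf2.S kept its call there. For kif3a.L the difference was also under 2-fold without bead replicate 4 (0.98) or flowthrough replicate 3 (0.93), and for kif3a.S without bead replicate 4 (0.93).

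Within experiment 1, the bead minus flowthrough difference at 9 hpf had a median of -0.01 over the 111 members and exceeded 2-fold in 1 of them, cenpv.L. This was a low row, with 72, 27, 0 and 0 in bead RNA and 2, 0, 2 and 2 in flowthrough RNA at 9 hpf, and over both experiments its difference was not called (log2 1.56 ± 1.11, adjusted p = 0.277). Within experiment 2 the median was -0.70. By size alone, without a test, 12 members were over 2-fold higher and 51 over 2-fold lower in bead RNA. These counts by size have no share over all genes beside them. Genes as a whole were shifted further there: in the fit to experiment 2 alone the median log2 difference was -1.5 over all 21703 genes tested and -0.69 over the members. In that fit 1679 genes were called higher and 4076 lower, a cut that also needs the adjusted p and is not comparable with the counts by size. In experiment 1 alone none of the 8 higher and none of the 17 lower members was called, and cenpv.L was the 1 called higher. Of all 21899 genes tested there, 1979 were called higher and 81 lower. For aurka.S the difference was -2.27 over both experiments and 0.08 in experiment 1 alone, and for cdca5.L, the sororin gene of sister chromatid cohesion, it was -3.39 over both and 0.61 in experiment 1 alone.

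**Figure D5:**
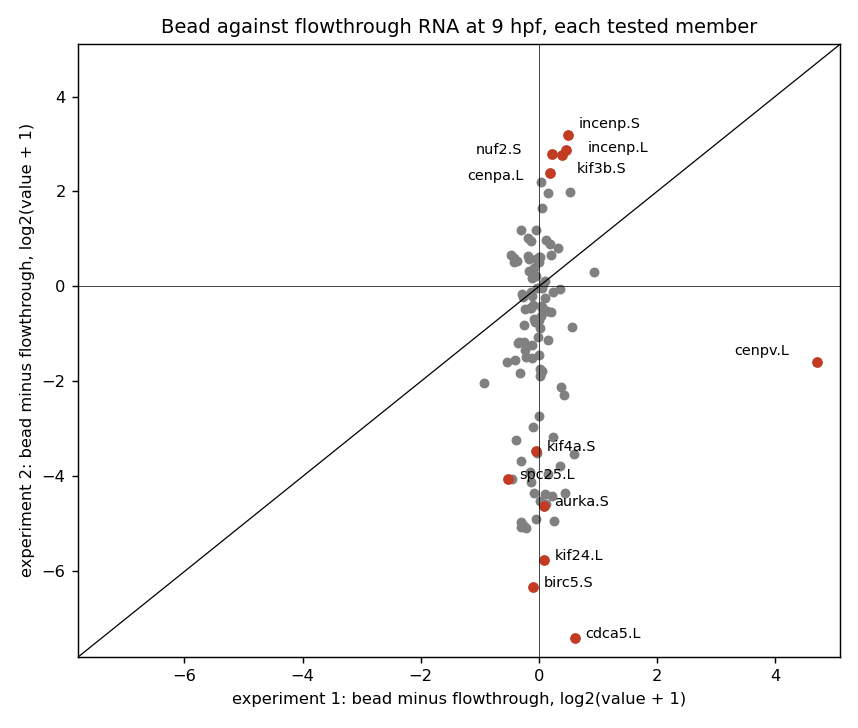
Mean log2(value + 1) of bead minus flowthrough RNA at 9 hpf for each of 111 members, experiment 2 (y axis) against experiment 1 (x axis), with the line of equal difference. Along the x axis all members but cenpv.L (4.71) lie between -0.932 and 0.934, while along the y axis they spread from -7.40 to 3.18.

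Change over time in bead RNA minus change over time in flowthrough RNA was called higher for 1 member, with 0 called lower, beside 4.6% of all genes called higher and 0.162% lower. At an unadjusted p under 0.05 in limma, 5 members were positive and 16 negative. The called member was cdca3.L. Its bead values were 1111, 1127, 456 and 1082 at 9 hpf and 1278, 1423, 728 and 797 at 5 hpf, which overlap, while its flowthrough values fell in all 4 replicates, as given above. The difference of changes was 1.09 ± 0.32 (adjusted p = 0.0367). It was called in experiment 1 alone, and the adjusted p was 0.476 in experiment 2 alone at the same size, 1.09. Leaving out single libraries lost the call in 10 of 16 cases, with adjusted p-values up to 0.124 (0.82 without bead 9 hpf replicate 4).

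Among genes that work with these proteins but lie outside the name rule, the called rows in flowthrough RNA were also lower ones. Of a list of 96 rows for other checkpoint, spindle, cohesin and cell cycle genes, 88 were tested in flowthrough RNA at 9 hpf against 5 hpf. Beside 3.94% lower and 0.202% higher of all 19277 genes tested, 14 of these rows were called lower and 0 higher. At an unadjusted p under 0.05 in limma 13 rows were positive and 40 negative. The median log2 change of the rows was -0.18, against -0.04 for all genes tested. The 4 with the smallest adjusted p were tacc3.S, a partner of Aurora A on spindle microtubules (-1.41, adjusted p = 7.04e-10), plk3.S, another Polo-like kinase (-1.16, adjusted p = 2.28e-09), cdk1.S, the kinase that drives entry into mitosis (-2.09, adjusted p = 5.93e-09), and ect2.L, the activator of RhoA in cytokinesis (-1.17, adjusted p = 3.06e-08). In total RNA 12 of 91 were lower and 2 higher, beside 2% of all genes called lower and 6.25% called higher. The higher rows were both copies of another Polo-like kinase gene, plk2.L (7.01 ± 0.78, adjusted p = 0.000215) and plk2.S (3.19 ± 0.73, adjusted p = 0.0163).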

How the data were processed

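Total, bead and flowthrough RNA of embryos at 5 to 9 hpf and total RNA of eggs were sequenced after ribosomal RNA depletion, per the labels' protocols. The submitters' processing notes name Salmon 0.12.0 and DESeq2. No genome build or annotation is named in the sources used here. The authors deposited 1 table for all 54 libraries, whose values are whole numbers treated here as a score, normalised and rounded by the authors and therefore not raw counts, so no count test was run; raw depth is unknown and the precision it gives could not be computed. The table holds 1 further column that names no library, which was not used.

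Genes that reached 10 in as many libraries as the smallest group were compared on log2(value + 1) with limma 3.58.1 (R 4.3.3, trended and robust, with statmod 1.5.0), with the experiment as a term, and p-values were adjusted over all genes tested by Benjamini and Hochberg's method. Fold changes on this scale understate the change of low genes. The fits were run on simulated data with independent errors and no experiment or replicate structure. Such data cannot show how the p-values behave when libraries of a replicate deviate together, as they did here. Figures were drawn with matplotlib 3.10.9. Members and gene lists were chosen with earlier results of these data known. Named members are core mitotic genes, the called members with the smallest adjusted p in each role and direction, and called L and S pairs. Outside these, kif20b.S, cdca4.L, ncaph2.S, cenpv.L and prc1.2.L were chosen after their values were seen. Alternatives tried were the pseudocount, the low-value filter, quantile normalization, each experiment alone, the replicate number as a block and each library left out.

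Libraries of each experiment come from 2 clutches, per the study's design text. The main tests held only the experiment and did not pair libraries by replicate number. Replicate numbers were taken as clutches across times and fractions only in the alternative with the replicate block. Deviations of same-numbered 9 and 5 hpf libraries from their group means correlated across genes at 0.608 to 0.71 in flowthrough RNA, 0.149 to 0.461 in bead RNA over both experiments (0.597 within experiment 1 and 0.0825 within experiment 2) and 0.765 in total RNA.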

Additional observations from a re-analysis of the deposited data

Results flagged for a closer look

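Of 101 groups of 4 libraries whose member values were examined, 7 had 1 library far from the other 3, where chance gives about 1 in 20. In bead RNA at 5 hpf, plk1.S had 2333 in replicate 3, below 3082, 3228 and 3222. In bead RNA at 9 hpf, cdca3.L had 456 in replicate 3, below 1111, 1127 and 1082. In flowthrough RNA at 5 hpf, kif2c.S had 750 in replicate 2, below 845, 837 and 832, and nuf2.L had 621 in replicate 3, below 668, 660 and 663. In flowthrough RNA at 9 hpf, kif20a.L had 2780 in replicate 1, above 2694, 2679 and 2696. The low row cenpv.L was listed at 0 in replicate 2 of flowthrough RNA at 9 hpf, beside 2 in each other replicate, and had 4 in replicate 3 at 5 hpf, beside 0 in the others.

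The change of cdca3.L between 5 and 9 hpf differed between bead and flowthrough RNA by 1.09 on the log2 scale in the test of that difference (limma, adjusted p = 0.0367). The causes were not tested.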

How the results depend on the processing

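With 1 library left out, 9 to 11 members were called lower in flowthrough RNA and 8 to 12 in total RNA. Over all genes, the same settings gave 660 to 876 lower in flowthrough RNA and 234 to 474 in total RNA. In bead RNA at 9 against 5 hpf, experiment 1 alone gave 1 member higher, experiment 2 alone gave 4 lower and quantile normalization 18 lower, and single libraries left out gave 0 to 1 higher and 6 to 14 lower. Over all genes, experiment 1 alone gave 1771 higher, experiment 2 alone 67 lower and quantile normalization 562 lower. Single libraries left out gave 1002 to 1158 higher and 91 to 622 lower over all genes. For total RNA, single libraries left out gave 0 to 1 members higher at 9 against 5 hpf, and 0 to 1 higher at 5 hpf against egg. Over all genes they gave 938 to 1314 and 18 to 134 higher. Over all genes, bead against flowthrough RNA at 5 hpf gave 17 higher calls in experiment 1, 304 in experiment 2 and 127 after quantile normalization. At 9 hpf it gave 1979 in experiment 1 and 2296 after quantile normalization. For bead against flowthrough RNA at 5 hpf, higher members numbered 0 in experiment 1, 7 in experiment 2, 0 after quantile normalization and 1 to 4 with a library left out. With a library left out, 73 to 139 of all genes were higher. At 9 hpf, 1 member was higher in experiment 1 and 2 after quantile normalization, with 0 lower in experiment 1, and left-out libraries gave 6 to 8 higher and 8 to 24 lower. Over all genes, 81 were lower in experiment 1, and left-out libraries gave 1834 to 2035 higher and 2538 to 4857 lower. For the difference of changes, 0 were higher in experiment 2 alone and with no filter and 1 was lower in experiment 2 alone, with 0 to 1 higher and 0 to 4 lower across left-out libraries. Over all genes, it gave 335 higher and 264 lower in experiment 2 alone, and 1025 higher with no filter. Left-out libraries gave 889 to 1081 higher and 4 to 505 lower over all genes. For L against S copies in flowthrough RNA, 0 were higher in each experiment alone and after quantile normalization, 1 was lower with the replicate block, and left-out libraries gave 0 to 1 in each direction. Over all pairs, 0 were higher in each experiment alone, 34 after quantile normalization and 31 to 44 with a library left out. Lower pairs over the whole table numbered 50 with the block and 17 to 29 with a library left out.

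In experiment 1 alone, 6 bead minus flowthrough differences at 9 hpf changed sign: aurka.S to 0.080, cdca2-like.S to 0.23, cdca5.L to 0.61, cenpn.L to 0.12, kif24.L to 0.086 and kif2a.L to 0.0012. The cause was not tested. Apart from the calls given with it in the results, the replicate block changed no other call of a named member. No paired analysis was possible for 5 hpf against egg because the eggs and the same-numbered embryos come from different experiments. Quantile normalization moved the median log2 change of all genes from -0.33 to -0.22 in bead RNA, -0.04 to 0.07 in flowthrough RNA and 0.04 to -0.07 in total RNA. Raw depth is unknown, which limits statements on low values.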
